A study of Mus musculus with 5 samples.

Results

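The mitochondrial ribosome makes the small set of hydrophobic respiratory chain proteins that the mitochondrial genome encodes. Its RNAs come from mitochondrial DNA, whereas all of its proteins are encoded in the nucleus, made in the cytosol and imported. Genes named Mrpl encode proteins of the large subunit and genes named Mrps, with a few exceptions, proteins of the small subunit. The genes described here are the 77 of 36529 gene rows whose symbol is Mrpl or Mrps followed by a number and at most 1 letter, 48 of the large and 29 of the small subunit by name. All 77 were present in each of the 3 deposited tables and matched a RefSeq gene, and 25 of them overlap another annotated gene, where reads of both can be mixed.

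The study made 3 single-cell libraries (10x Genomics, 3' ends counted by unique molecular identifiers, UMIs) from pancreatic tumors of mice homozygous for a Gcgr knockout, 1 library from islets of homozygous Gcgr knockout mice and 1 from islets of Gcgr heterozygous mice. Gcgr encodes the glucagon receptor, and every group carries at least 1 knockout allele, so there are no wild-type cells. The labels give no age, driver or number of animals. The tumor cells sit in 1 table as libraries that are called A, B and C here because their names there do not tie them to the numbered tumor samples. After 50 predicted doublets of 6645 cells were removed, 496, 846 and 1084 cells remained in tumor libraries A, B and C, 2843 in the homozygous and 1326 in the heterozygous islets, of which 1525 and 306 were alpha cells by the authors' labels. Median depth of these alpha-like cells was 19868, 26092 and 19379 UMIs in tumor libraries A, B and C, 14086 in homozygous alpha cells and 10003 in heterozygous ones. No cell name was shared between libraries. Gcgr had 0, 1 and 3 UMIs in tumor libraries A, B and C and 0 in the 2843 homozygous islet cells, against 137 in the 1326 heterozygous islet cells. The 8 alpha cell markers summed to between 407461 and 427466 CPM (UMIs of a gene scaled to a common total per cell) in the tumor libraries and to 394044 and 396180 CPM in homozygous and heterozygous alpha cells, so the tumor cells carried the alpha program. The 8 beta cell markers summed to 4.35, 99.3 and 3323 CPM in tumor libraries A, B and C, against 11489 CPM in homozygous and 55516 CPM in heterozygous alpha cells. Mafa was at 0 in all tumor libraries and in heterozygous alpha cells. With 1 library per islet genotype and nothing that says how many animals each holds, p-values measure the spread between these libraries only.

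The promoters of these genes were searched for 4 motifs, counted without a test. RefSeq promoters (GRCm38.p6, 250 bases before to 50 bases after the start) were given for 68 of the 77 members. CCGGAAG, the ETS site that GABP (nuclear respiratory factor 2) binds, was found on either strand in 25 of the 68 (36.8%). It was in 22.1% of the 8412 genes tested in the cycling comparison below that have a promoter. Of all 27025 genes with a promoter, called all promoters here, it was in 9.93%. A gene counts once, when any of its starts holds the motif. ATGGCGG, the core of the YY1 site, was found in 19.1% of members, 10.4% of those tested genes and 4.69% of all promoters. Counted before the start alone it was in 1 member (1.47%), 4.93% of the tested genes and 2.58% of all promoters. Nearly all of its matches in members thus lie outside that stretch. CCGGAAG before the start was in 25.0% of members, 17.1% of tested genes and 7.83% of all promoters. GCATGCG, the core of the NRF1 (nuclear respiratory factor 1) site, was found in the whole window in 11.8% of members, 7.94% of tested genes and 4.01% of all promoters. The E-box CACGTG was found in 7.35% of members, 12.1% of tested genes and 8.09% of all promoters. A match is a description of letters, not a binding site. The 120 bases before the start are shown for Mrpl52, the most abundant member in alpha-like cells, for Mrpl43, which holds CCGGAAG at 2 places, and for the 3 members higher in cycling cells that hold a searched motif in this stretch, in the gene's own direction with the motif or its reverse complement in capitals. In Mrpl33 the NRF1 core begins at -11, in Mrpl20 the E-box at -33, in Mrps11 the YY1 core at -109 and in Mrpl52 the ETS site at -47. The remaining members higher in cycling cells that have a promoter hold none of the 4 motifs in their 120 bases. The stretches lie at chr14:54426789-54426908 (plus strand, Mrpl52), chr19:45006443-45006562 (minus strand, Mrpl43), chr5:31613831-31613950 (plus strand, Mrpl33), chr4:155802758-155802877 (plus strand, Mrpl20) and chr7:78783011-78783130 (plus strand, Mrps11).
Mrpl52: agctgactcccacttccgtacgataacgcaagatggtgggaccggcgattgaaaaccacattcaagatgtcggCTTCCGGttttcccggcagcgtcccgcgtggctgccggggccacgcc
Mrpl43: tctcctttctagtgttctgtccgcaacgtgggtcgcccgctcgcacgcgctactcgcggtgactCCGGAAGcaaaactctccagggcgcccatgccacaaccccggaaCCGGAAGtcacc
Mrpl33: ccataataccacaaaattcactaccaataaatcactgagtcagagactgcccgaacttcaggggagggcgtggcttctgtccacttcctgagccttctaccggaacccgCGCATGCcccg
Mrpl20: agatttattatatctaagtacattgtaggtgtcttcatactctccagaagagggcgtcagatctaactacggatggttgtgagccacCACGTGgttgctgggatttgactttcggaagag
Mrps11: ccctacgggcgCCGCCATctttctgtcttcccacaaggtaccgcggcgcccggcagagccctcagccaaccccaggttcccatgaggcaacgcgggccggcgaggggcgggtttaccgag

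The members were expressed in every cell type, and their place in the order of endocrine and other cells depended on whether hormone transcripts counted in the total. The 8 transcripts counted as hormones here were Gcg, Ins1, Ins2, Ppy, Pyy, Sst, Iapp and Ttr, of which Ttr encodes a carrier protein and no hormone. Together these took 42.5%, 41.2% and 41.1% of UMIs for tumor libraries A, B and C. In homozygous and heterozygous alpha cells the share was 56.5% and 48.1%. They took about 71.3% and 71.4% in homozygous and heterozygous beta cells but only 4.44% and 5.44% in endothelial cells of the 2 genotypes. Levels are therefore given on both scales, as CPM of all UMIs and as CPM of UMIs outside the hormones, each with an exact Poisson 95% interval that covers counting error only. In tumor libraries A, B and C the 77 members together took 3651 (3613 to 3688), 5386 (5356 to 5416) and 4962 (4932 to 4992) CPM of all UMIs. In alpha cells they took 3969 (3942 to 3995) in homozygous and 3765 (3698 to 3833) in heterozygous islets. Outside the hormones the same cells held 6350, 9154 and 8422 CPM in tumor libraries A, B and C, 9120 in homozygous and 7258 in heterozygous alpha cells.

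**Figure D1:**
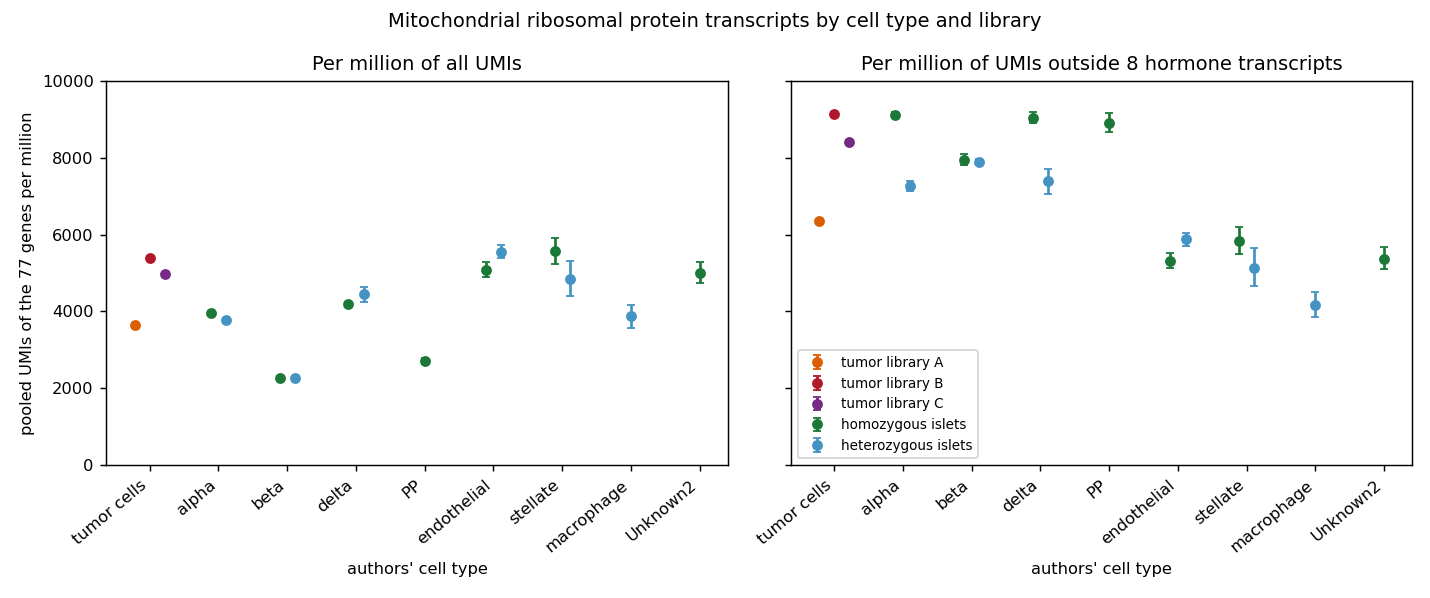
Pooled level of the 77 genes by the authors' cell type, with exact Poisson 95% intervals. Left, CPM of all UMIs. Right, CPM of UMIs outside the 8 transcripts counted as hormones. Each point is 1 library. On the left, beta cells (2278 homozygous, 2256 heterozygous) sit lowest and endothelial cells (5087 and 5558) among the highest; on the right, the endocrine cells of the islets sit above the endothelial ones.

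As CPM of all UMIs, beta cells of homozygous and heterozygous islets held 2278 and 2256, pancreatic polypeptide (PP) cells, found in the homozygous islets, 2704, delta cells 4189 and 4450, endothelial cells 5087 and 5558, and stellate cells 5563 and 4844. Macrophages, found in the heterozygous islets, held 3870, and the type the authors call Unknown2, found in the homozygous islets, 5013. Outside the hormones, beta cells held 7949 and 7879, PP cells 8910, delta cells 9043 and 7387, endothelial cells 5323 and 5877, stellate cells 5839 and 5140, macrophages 4180 and Unknown2 cells 5375. The alpha over endothelial ratio was thus 0.780 (0.752 to 0.810) in homozygous and 0.677 (0.655 to 0.701) in heterozygous islets on all UMIs, and 1.71 (1.65 to 1.78) and 1.23 (1.19 to 1.28) outside the hormones, where the intervals lie on the other side of 1. On all UMIs 14 of 68 members were higher in alpha than in endothelial cells of homozygous islets (16.3% of all genes at 20 CPM or more in either type), and outside the hormones 57 of 70 (47.7%). In heterozygous islets the counts were 9 of 67 (20.7%) and 51 of 71 (51.0%). The authors' types came from these same cells, so these levels are a description.

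Single members did not follow the pooled ratio equally. Mrpl1, of the L1 stalk region where tRNA leaves the ribosome, held 86.2 CPM outside the hormones in homozygous alpha cells (831 UMIs) against 16.6 CPM in endothelial cells of the same islets (9 UMIs), a ratio of 5.18 (2.72 to 11.4), and 49.8 against 11.1 CPM in heterozygous islets. Mrps12, a protein of the decoding centre, held 331 CPM in alpha against 109 CPM in endothelial cells of homozygous islets and 213 against 103 CPM in heterozygous ones, ratios of 3.04 (2.348 to 3.998) and 2.08 (1.63 to 2.67). Mrpl18, a large subunit protein related to those that bind 5S RNA in bacteria, ran the other way in heterozygous islets, with 39.0 CPM in alpha against 106 CPM in endothelial cells, a ratio of 0.366 (0.261 to 0.511). In homozygous islets its ratio of 0.718 (0.511 to 1.04) had an interval that includes 1. The rank order of the 77 members was nonetheless much alike across cells, with Spearman's rho between 0.93 and 0.98 over pairs of the 5 alpha-like libraries and 0.88 between alpha and endothelial cells in either genotype, across genes that share depth and capture within a library.

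Beta cells held the members at a lower pooled level than alpha cells on all UMIs, in both genotypes. The beta over alpha ratio was 0.574 (0.563 to 0.585) in homozygous and 0.599 (0.587 to 0.612) in heterozygous islets on all UMIs, with 0 of 58 members (25.4% of all genes) and 3 of 58 members (11.2%) higher in beta cells. Outside the hormones it was 0.872 (0.855 to 0.888) in homozygous and 1.09 (1.06 to 1.11) in heterozygous islets, with 24 of 71 members (65.5% of all genes) and 45 of 71 (60.6%) higher in beta cells. Mrpl33, of the large subunit, stood lowest in homozygous beta cells, with 288 CPM outside the hormones against 504 CPM in alpha cells, a ratio of 0.571 (0.518 to 0.628). Mrpl46 stood highest in heterozygous beta cells, with 78.5 CPM against 30.6 CPM in alpha cells, a ratio of 2.57 (1.91 to 3.51).

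Within homozygous alpha cells, the cells of graph-based cluster 2.1 held 4299 CPM of members and those of cluster 2.2 held 3385, a ratio of 1.27 (1.25 to 1.29). Hormones took 53.0% of UMIs in cluster 2.1 and 62.6% in cluster 2.2, and outside them the ratio was 1.01 (0.998 to 1.03). On all UMIs 56 of 58 members were higher in cluster 2.1 (88.4% of all genes), and outside the hormones 33 of 72 (45.5%). Mrpl1 kept a ratio above 1 on both scales, with 44.5 CPM in cluster 2.1 and 25.2 CPM in cluster 2.2 on all UMIs, and 94.7 against 67.3 CPM outside the hormones, ratios of 1.77 (1.503 to 2.084) and 1.41 (1.20 to 1.66). Tumor library C was split the same way by its clusters. Its cluster 2 held 5197 and its cluster 4 held 4578 CPM of members, a ratio of 1.14 (1.12 to 1.15), and 1.00 (0.989 to 1.01) outside the hormones, which took 38.3% and 45.6% of UMIs. There 54 of 66 members (70.7% of all genes) and 40 of 73 (48.2%) were higher in cluster 2. Mrpl23 held 10.9 CPM in cluster 2 against 20.9 CPM in cluster 4, a ratio of 0.520 (0.414 to 0.652) that lies on the other side of 1 from the pooled one. Other members departed from the pooled ratio too, in both directions. Outside the hormones Mrpl43 stood at 0.722 (0.638 to 0.817) and Mrpl36 at 0.736 (0.671 to 0.807). Mrps10 stood at 1.45 (1.26 to 1.67) and Mrpl42 at 1.42 (1.30 to 1.55).

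Between genotypes the members of alpha cells differed more outside the hormones than on all UMIs. Outside them they held 9120 CPM in homozygous and 7258 in heterozygous alpha cells, a ratio of 1.26 (exact binomial 95% interval 1.23 to 1.28, counting error only), and 1.05 (1.03 to 1.07) on all UMIs. With 1 library a genotype there is no test. Among the 75 members with 100 UMIs or more over both libraries, the interval lay above 1 for 38 and below 1 for 6 outside the hormones, where it did so for 18.8% and 27.4% of all 9612 genes. On all UMIs it lay above 1 for 19 and below 1 for 14, against 9.97% and 44.5% of all genes. The median ratio was 1.22 for members and 0.941 for all genes outside the hormones, and 1.03 and 0.790 on all UMIs. The handling stress list (Fos, Junb, Egr1, Atf3, Hspa1a and Dusp1) summed to 301 CPM in homozygous and 2806 CPM in heterozygous alpha cells, and its part in these ratios was not tested.

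**Figure D2:**
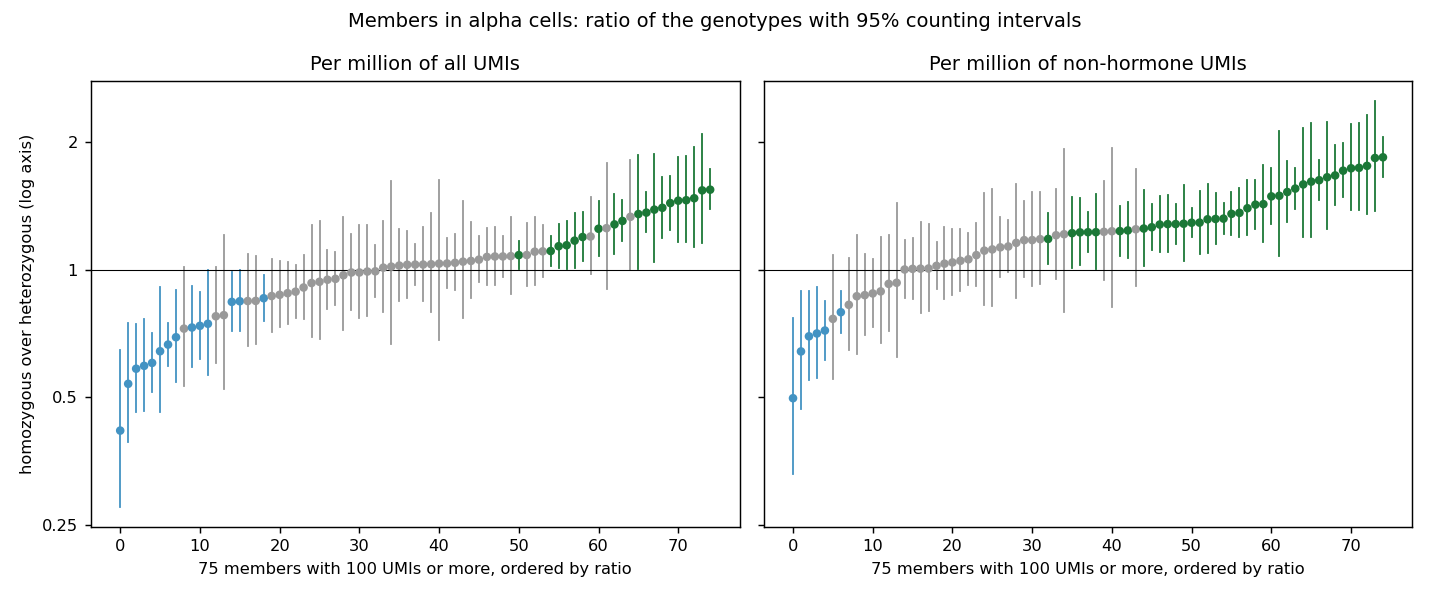
Ratio of homozygous over heterozygous alpha cells (log axis) for the 75 members with 100 UMIs or more, ordered by ratio, in CPM of all UMIs (left) and of non-hormone UMIs (right); bars are exact 95% counting intervals. Green marks the 19 (left) and 38 (right) members whose interval lies above 1, blue the 14 and 6 whose interval lies below 1.

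Mrpl17, a large subunit protein near the exit of the peptide tunnel, had the largest ratio with 406 CPM outside the hormones in homozygous alpha cells (3911 UMIs) against 221 CPM in heterozygous ones (368 UMIs), 1.84 (1.65 to 2.05). Mrpl46 (56.0 against 30.6 CPM, ratio 1.83), Mrpl22 (65.2 against 37.2, 1.76), Mrpl15 (84.3 against 48.6, 1.74), Mrpl1 (86.2 against 49.8, 1.73) and Mrpl34 (210 against 122.9, 1.71) followed, all with intervals above 1 on both scales. At the other end stood Mrps27 with 9.54 CPM in homozygous against 19.2 CPM in heterozygous alpha cells, a ratio of 0.497 (0.329 to 0.769). Mrpl23 (19.6 against 30.6 CPM, 0.641), Mrps9 (37.1 against 53.4, 0.696), Mrpl9 (34.7 against 49.2, 0.707) and Mrpl48 (82.7 against 115, 0.718) also lay below 1 on both scales. Mrpl45 (20.6 against 27.0 CPM, 0.765) did so only on all UMIs. The 6 members named at the high end are all of the large subunit by name, and those at the low end are of both.

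The other cell types did not share 1 ratio. In beta cells the pooled ratio of homozygous over heterozygous islets was 1.01 (0.990 to 1.03) on all UMIs, with 9 of 73 members above and 8 below 1, against 19.0% and 19.5% of all genes. Mrpl1 had the highest beta cell ratio, with 22.8 CPM in homozygous against 14.9 CPM in heterozygous beta cells, a ratio of 1.53 (1.23 to 1.90), and Mrps33 lowest, with 9.44 against 15.5 CPM, 0.608 (0.444 to 0.819). In delta cells the pooled ratio was 0.941 (0.898 to 0.987) on all UMIs and 1.22 (1.17 to 1.28) outside the hormones, which took 53.7% of UMIs in homozygous and 39.8% in heterozygous delta cells, so the scale decides its side of 1. Of 51 delta cell members 1 lay above and 7 below 1 on all UMIs (5.37% and 31.7% of all genes), and 14 above and 2 below outside the hormones (17.3% and 11.3%). Mrpl50, a mitochondria-specific large subunit protein, had the lowest delta ratio, with 80 UMIs (23.2 CPM) in homozygous and 27 UMIs (60.2 CPM) in heterozygous cells, 0.385 (0.246 to 0.620). In endothelial cells the ratio was 0.915 (0.874 to 0.959) on all UMIs and 0.906 (0.864 to 0.949) outside the hormones, and of 32 members 1 lay above and 4 below 1 on all UMIs (15.6% and 15.2% of all genes). In stellate cells it was 1.15 (1.03 to 1.29) and 1.14 (1.02 to 1.27), from 1057 and 436 member UMIs.

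Tumor cells were then compared with islet alpha cells, 3 against 2 libraries, on the log2 scale of mean CPM plus 1 with limma. The islet arm holds both genotypes. Tumor and islet cells come from separate tables, so the part of the table cannot be told apart from that of the group. None of the 75 members tested passed the threshold (Benjamini-Hochberg adjusted p under 0.05) in either direction, where 2.08% of the 10234 genes tested were higher and 0.137% lower in tumor cells, 2.22% in all. At an unadjusted p under 0.05 limma held 3 members (Mrps10, Mrpl1 and Mrps2), against 21.4% of all genes, and edgeR and DESeq2 on summed UMIs also called 0 members. The median member difference was +0.14 and that of all genes +0.25 (log2), so members lay 0.11 below the genes as a whole (relative median -0.11). With hormones left out of the totals the 2 medians were -0.14 and -0.02, so 46 of 75 positive differences on the first scale do not fix a direction. All 3 tumor libraries lay above both islet libraries for 10 members, against 33.7% of all genes, and below both for 2 members, Mrps31 and Mrps23, against 5.62% of all genes.

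As a check on identity, Gcg did not pass (log2 difference -0.02 ± 0.81, limma adjusted p = 0.992). With so wide an SE, and islet cells that the authors labeled by Gcg, this does not settle identity. Slc38a5 had 1097, 1813 and 1644 CPM in tumor libraries A, B and C against 741 CPM in homozygous and 84.0 CPM in heterozygous alpha cells (2.56 ± 0.78, adjusted p = 0.123). The largest member estimate belonged to Mrps10, a small subunit protein of the head region, with 32.1, 48.4 and 47.0 CPM in tumor libraries A, B and C against 17.4 CPM in homozygous and 24.9 CPM in heterozygous alpha cells. The groups did not overlap, and the log2 difference was 0.97 ± 0.29 (SE, limma adjusted p = 0.113). Mrpl1 held 53.6, 67.3 and 62.4 CPM in tumor libraries A, B and C against 37.6 and 27.5 CPM in homozygous and heterozygous alpha cells, again with no overlap, a log2 difference of 0.90 ± 0.25 (limma adjusted p = 0.103). Mrps21 had 103, 196 and 181 CPM in tumor libraries A, B and C against 75.2 and 111 CPM in homozygous and heterozygous alpha cells, where library A lay between the 2 islet values (0.75 ± 0.35, adjusted p = 0.259). Mrps2 had 11.8, 13.6 and 18.5 CPM in the tumor libraries against 8.20 and 8.90 CPM (0.69 ± 0.28, adjusted p = 0.207). The 4 lowest estimates belonged to Mrps9, Mrpl34, Mrpl27, which in bacteria reaches the peptidyl transferase centre, and Mrpl9, at -0.55, -0.41, -0.37 and -0.35, with adjusted p from 0.348 to 0.554. For Mrps9 the heterozygous alpha cells stood apart, with 13.2, 15.8 and 16.6 CPM in tumor libraries A, B and C and 16.3 CPM in homozygous alpha cells against 31.0 CPM in heterozygous ones.

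**Figure D3:**
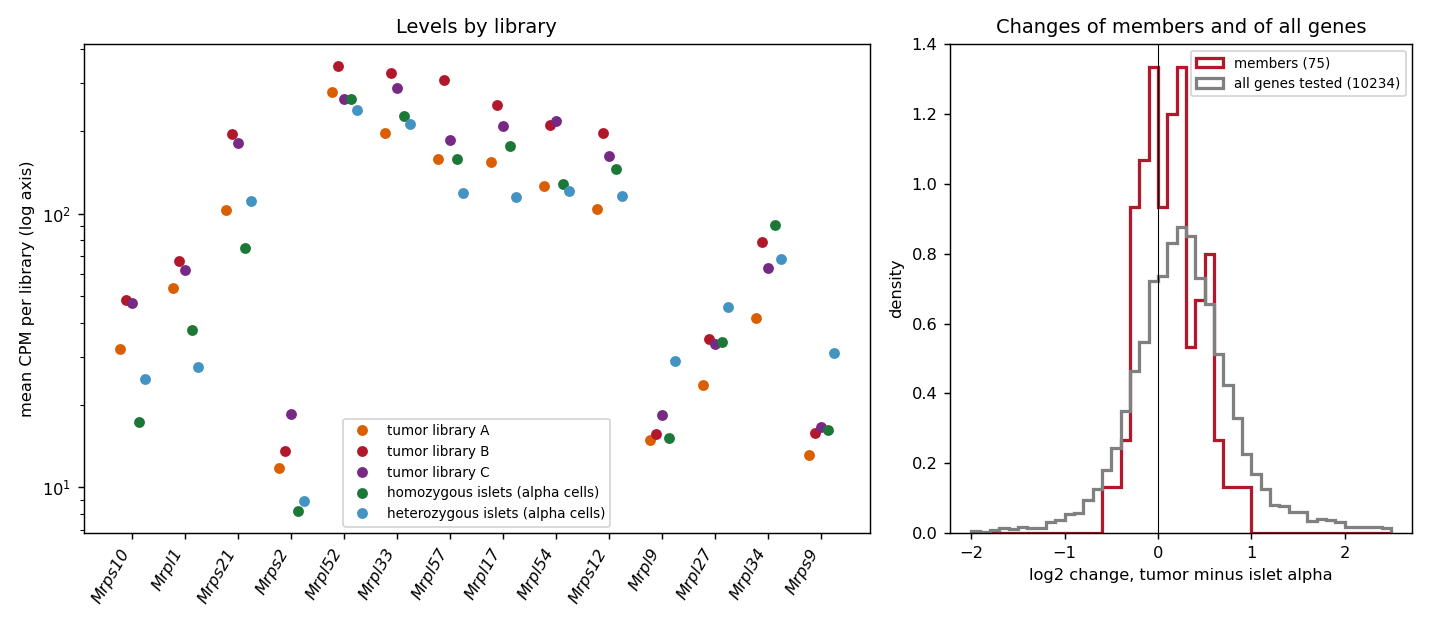
Left, mean CPM per library (log axis) of the 4 highest, 6 of the most abundant and the 4 lowest members by tumor minus islet alpha difference; right, density of the log2 differences of the 75 members and of all 10234 genes tested. Members spread less widely (SD 0.32) than all genes (SD 0.67), and tumor library A is the lowest tumor library for most of them.

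The 8 most abundant members over the 5 libraries were Mrpl52, Mrpl33, Mrpl57, Mrpl17, Mrpl54, Mrps12, Mrps21 and Mrpl20; UMIs count transcript ends, so these levels do not scale with transcript length. Mrpl52 had 278, 346 and 263 CPM in tumor libraries A, B and C against 262 CPM in homozygous and 239 CPM in heterozygous alpha cells, and its tumor values sat just above the islet ones. Mrpl33 had 197, 327 and 287 CPM in the tumor libraries against 228 and 212 CPM, so library A lay below and libraries B and C above both islet libraries. Mrpl57, whose gene overlaps Ska3, had 159, 308 and 187 CPM in the tumor libraries against 159 and 120 CPM in homozygous and heterozygous alpha cells. The 3 Mrps18 paralogs, of which the Mrps18a protein sits in the large subunit despite its name, differed in level. Mrps18a had 66.0, 100 and 104 CPM in tumor libraries A, B and C against 81.9 and 78.1 CPM in homozygous and heterozygous alpha cells, and Mrps18c 25.7, 51.6 and 72.3 CPM against 49.3 and 65.1 CPM. Mrps18b stayed at 3.19 to 3.85 CPM in the tumor libraries and at 3.26 and 3.53 CPM in the islet ones and, like Mrps36 at 4.62 to 6.55 CPM against 3.16 and 2.95 CPM, was too low to test. Chromosome 10 holds 2 members. Mrpl54 (chr10:81264722-81266926) had 127, 210 and 217 CPM in tumor libraries A, B and C against 128 and 121 CPM in homozygous and heterozygous alpha cells (0.52 ± 0.30, adjusted p = 0.361), and Mrpl42 (chr10:95480805-95501949) 61.3, 108 and 116 CPM against 66.9 and 57.5 CPM (0.55 ± 0.32, adjusted p = 0.359).

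Some transcripts of mitochondrial DNA, which supply both the templates and the RNAs of this ribosome, were higher in tumor cells in the same fit. Of 12 tested genes encoded in mitochondrial DNA 4 were higher in tumor cells and none lower, with a median of +1.63 for the list. Of all genes tested 2.08% were higher and 0.137% lower. At an unadjusted p under 0.05 limma held 10 of the 12, against 21.4% of all genes. The 2 mitochondrial ribosomal RNAs were among the 4 that passed. Rnr1 held 130, 83.1 and 106 CPM in tumor libraries A, B and C against 10.2 CPM in homozygous and 11.9 CPM in heterozygous alpha cells (log2 difference 3.14 ± 0.27, limma adjusted p = 0.00502), and Rnr2 held 577, 469 and 946 CPM against 91.9 and 149 CPM (2.43 ± 0.37, adjusted p = 0.0286). ND2, a subunit of complex I, rose by 2.47 ± 0.38 and ATP6, of the ATP synthase, by 2.31 ± 0.39 on the log2 scale. Median mitochondrial UMI share per cell, a sign of RNA quality as well as of mitochondrial content, was 1.40%, 1.28% and 2.15% for tumor libraries A, B and C against 0.620% and 0.624% in homozygous and heterozygous alpha cells, and its part in these differences was not tested. Of the nuclear lists, 0 of 5 mitoribosome proteins outside the name rule (median -0.09), 0 of 14 translation factors (+0.10), 0 of 18 assembly factors (+0.10), 0 of 13 mitochondrial tRNA synthetases (+0.33), 0 of 76 nuclear respiratory chain genes (+0.20) and 0 of 83 cytosolic ribosomal protein genes (+0.12) passed. At an unadjusted p under 0.05 limma held 7 of the nuclear respiratory chain genes, 6 of the cytosolic ribosomal protein genes and 0 of each of the other 4 of these lists. Of 8 transcription and biogenesis genes 2 had an unadjusted p under 0.05 and 1 passed after adjustment, Pprc1, a coactivator related to PGC-1, with 20.8, 16.8 and 18.2 CPM in tumor libraries A, B and C against 6.56 and 6.88 CPM in homozygous and heterozygous alpha cells (1.34 ± 0.24, adjusted p = 0.0381). Tsfm, the mitochondrial elongation factor Ts, held 602 CPM in tumor library C against 18.7 and 26.7 CPM in libraries A and B, 22.4 CPM in homozygous and 15.5 CPM in heterozygous alpha cells, and did not pass (adjusted p = 0.450).

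Library A stood apart from the other tumor libraries in these genes. It was the lowest of the 3 tumor libraries for 69 of the 75 members tested, against 37.7% of all genes. Among members at 20 CPM or more in 2 tumor libraries it was lowest for 58 of 60 on all UMIs (44.1% of all genes) and for 66 of 71 outside the hormones (37.8%), and highest for 0 and 1 (26.7% and 31.7% of all genes). The median member ratio of library A over B was 0.719 and over C 0.735 on all UMIs, where those of all genes were 0.958 and 0.927. Cytosolic ribosomal protein genes ran the other way, with library A highest for 67 of 80 on all UMIs and a median ratio of 1.96 over library B and 1.99 over library C. Nuclear respiratory chain genes were lowest in library A for 48 of 71, and genes encoded in mitochondrial DNA for 0 of 10. Of 77 members a median of 14 were detected per cell of library A after thinning to 5000 UMIs, against 19 in libraries B and C, and 37 against 50 and 44 before thinning. The stress list summed to 1499 CPM in library A against 1262 and 1513 CPM in libraries B and C, so library A lay between the other libraries in it.

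**Figure D4:**
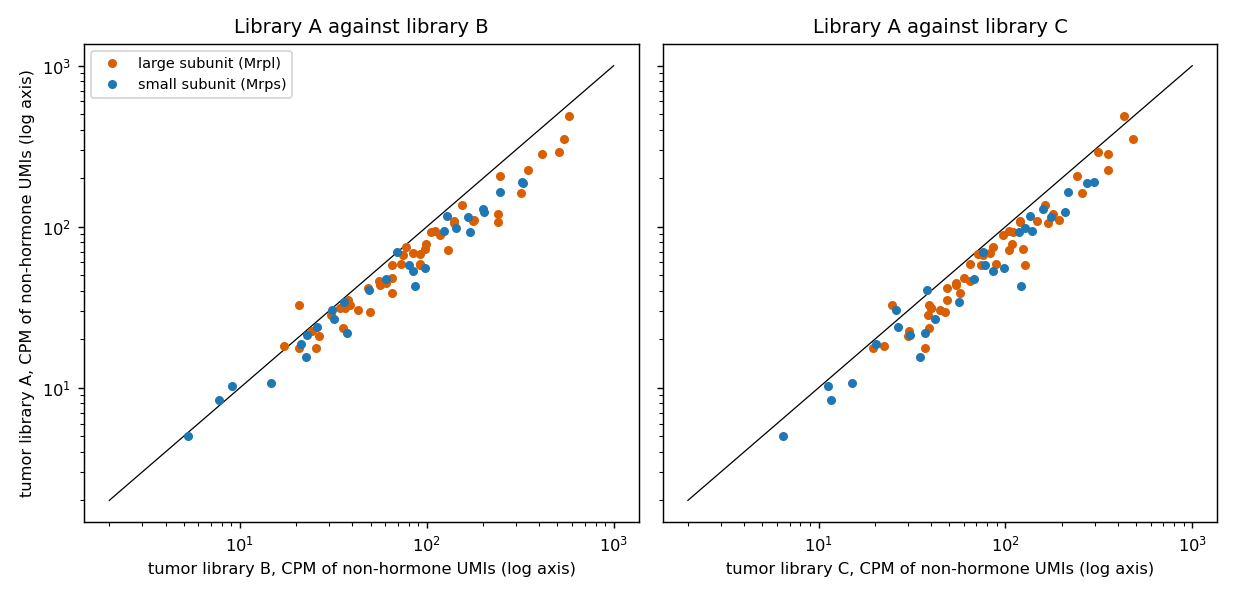
Each point is 1 member, with its CPM of non-hormone UMIs in tumor library A (vertical, log axis) against library B (left) or C (right); the line marks equal levels. Most points of either subunit lie below the line, with library A lowest of the 3 libraries for 66 of the 71 members at 20 CPM or more in 2 libraries.

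Cycling tumor cells were compared with the other tumor cells of the same library. A cell was called cycling when it held UMIs of 2 or more of 11 cell cycle genes after thinning to 5000 UMIs, which gave 33, 42 and 66 cycling against 447, 800 and 1002 other cells in libraries A, B and C. The members together held 4298 (4143 to 4456), 5562 (5423 to 5704) and 5930 (5805 to 6058) CPM of all UMIs in cycling cells of libraries A, B and C, against 3609, 5377 and 4897 in the other cells. Outside the hormones they held 6809, 8917 and 8758 in cycling against 6325, 9167 and 8403 in the other cells, so in library B the cycling cells were lower on that scale. Hormones took 36.9%, 37.6% and 32.3% of UMIs in cycling cells of libraries A, B and C and 42.9%, 41.3% and 41.7% in the others. The share was thus lower in cycling cells of every library. Hormone UMIs count in the 5000 of the thinning, so the rule itself favors cells with a lower share. In the fit with library as a block (limma), 11 of 76 members tested were higher in cycling cells, against 9.87% of all 10898 genes, and 1 was lower, against 1.48%, 11.4% of all genes in either direction. The stress list summed to 1036, 936 and 1298 CPM in cycling against 1529, 1278 and 1527 CPM in the other cells of libraries A, B and C, and the part of stress and hormone share in the calls was not tested. At an unadjusted p under 0.05 limma held 20 members, against 23.9% of all genes. In all 3 libraries 31 members were higher and 3 lower, against 30.1% and 13.4% of all genes, and the median member change was +0.17 against +0.08 for all genes.

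Mrpl13 changed most. It held 76.6, 88.8 and 61.7 CPM in cycling cells of libraries A, B and C against 31.2, 41.5 and 37.4 CPM in the other cells, a log2 change of 1.02 ± 0.17 (SE, limma adjusted p = 0.000493), and every cycling value lay above every other value. Mrpl33 held 336, 442 and 413 CPM in cycling cells against 187, 321 and 280 CPM in the other cells of libraries A, B and C (0.62 ± 0.11, limma adjusted p = 0.00093), again higher within each library and above all other values. Mrpl42 held 118, 136 and 201 CPM in cycling cells against 58.5, 107 and 109 CPM in the other cells (0.74 ± 0.14, limma adjusted p = 0.00228), without overlap as well. Mrpl28 held 90.7, 118 and 173 CPM in cycling cells against 59.5, 82.2 and 96.9 CPM in the other cells (0.65 ± 0.13, limma adjusted p = 0.00383), where library A's cycling value fell between the other cells of libraries B and C. These 4 also passed with TMM scaling, with hormones left out of the totals, with edgeR and with DESeq2. Mrpl28 did not pass without library C (adjusted p = 0.0848), Mrpl33 and Mrpl42 did not pass with no filter on low values. None of the 4 passed without the library block.

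The other 7 higher members were Mrpl49 (+0.79), Mrpl18 (+0.72), Mrps11 (+0.66), Mrpl12 (+0.61), Mrpl14 (+0.57), Mrps24 (+0.47) and Mrpl20 (+0.40), with adjusted p from 0.00949 to 0.0463, each higher within all 3 libraries. Mrpl12 is the stalk protein that contacts elongation factors, and Mrpl14 lies at the face where the subunits join. With edgeR 4 of these 7 passed (Mrpl14, Mrpl18, Mrpl49 and Mrps11, adjusted p from 0.00332 to 0.0187). None of the 7 passed with TMM scaling, with hormones left out or with DESeq2. In all, 0 members passed without the library block. Leaving out library A, B or C gave 7, 12 and 3 higher members. Mrpl41, which has also been described as a binding partner of Bcl2, was the 1 lower member, with 48.9, 111 and 44.2 CPM in cycling cells of libraries A, B and C against 61.5, 147 and 71.7 CPM in the other cells (-0.47 ± 0.15, limma adjusted p = 0.0487). The next lowest were Mrps34 (-0.40, adjusted p = 0.134), Mrpl22 (-0.27), Mrpl3 (-0.26) and Mrpl39 (-0.22), and Mrps34 passed with TMM scaling, edgeR, DESeq2 and hormones left out.

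**Figure D5:**
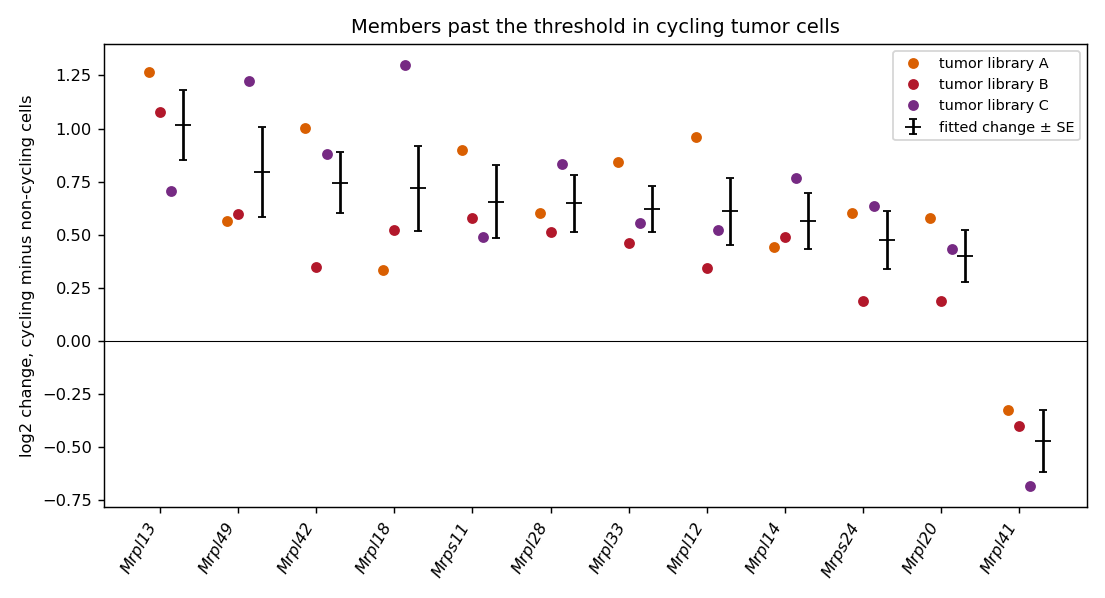
Log2 change of mean CPM plus 1, cycling minus non-cycling cells, for the 12 members past the threshold; points are the 3 tumor libraries and the crosses the fitted change ± SE. All 3 points lie above 0 for the 11 higher members and below 0 for Mrpl41. Library C lies highest for Mrpl49, Mrpl18, Mrpl28, Mrpl14 and Mrps24, and library A for the other higher members.

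Cluster and cycling were tied in library C, where 59 of its 66 cycling cells lay in cluster 2 (8.59% of that cluster's thinned cells) and 7 in cluster 4 (1.84%). With library C limited to cluster 2, an alternative chosen after seeing the data, 11 members were again higher and 1 lower. Related lists moved as follows in the same fit. Of 6 tested mitoribosome proteins outside the name rule 1 rose, Chchd1, a small subunit protein, with 163, 208 and 215 CPM in cycling cells against 105, 166 and 145 CPM in the other cells of libraries A, B and C (0.51 ± 0.12, adjusted p = 0.01). Of 14 translation factors 1 rose, Tsfm, with 26.3, 33.0 and 950 CPM in cycling against 18.8, 26.5 and 575 CPM in the other cells of libraries A, B and C (0.50 ± 0.14, adjusted p = 0.0337). In library C, Tsfm held 874 CPM in cluster 2 against 56.6 CPM in cluster 4, a ratio of 15.4 (14.1 to 17.0). Cycling cells of that library lay mostly in cluster 2. None of 18 assembly factors, 9 transcription and biogenesis genes or 12 mitochondrially encoded genes passed, with 0, 5 and 0 of them at an unadjusted p under 0.05 by limma. Of 77 nuclear respiratory chain genes 22 were higher and 0 lower, with a median of +0.25, where 9.87% of all genes were higher. Among them were the ATP synthase subunit Atp5j (+0.65) and the cytochrome oxidase subunits Cox7a2 (+0.65) and Cox6b2, known from testis, with 96.6, 108 and 57.8 CPM in cycling against 16.0, 11.9 and 14.2 CPM in the other cells (2.52 ± 0.21, adjusted p = 4.41e-07). Of 83 cytosolic ribosomal protein genes 2 were higher, Rps19 (+0.29) and Rps27l (+0.75), and 1 lower, Rpl38 (-0.28). Gcg, a check on cell identity, did not pass (-0.22 ± 0.08, adjusted p = 0.0893).

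Cells with a UMI of Slc38a5, a glutamine transporter, were compared with cells without one within each of the 5 libraries, since the study's title ties these tumors to amino acids and a subset of alpha cells. After thinning to 5000 UMIs there were 407, 816 and 1032 positive against 73, 26 and 36 negative cells in tumor libraries A, B and C, 992 against 435 in homozygous and 69 against 190 in heterozygous alpha cells. None of 76 members passed in limma with library as a block, where 0.163% of 11033 genes were higher and 0.0453% lower, 0.208% in all, and edgeR and DESeq2 also called 0 members. At an unadjusted p under 0.05 limma held 21 members, against 15.6% of all genes, and 18 were higher in every library, against 12.7%, and 1 lower in every library, Mrpl9, against 1.40%. The median was +0.15 for members and for all genes alike. Hormones took 41.7%, 41.0% and 40.9% of UMIs in positive cells of tumor A, tumor B and tumor C against 48.2%, 48.7% and 47.8% in negative cells of the same tumor libraries in that order, 55.17% against 59.98% in homozygous and 48.5% in both classes of heterozygous alpha cells. The stress list was lower in positive cells of all 5 libraries, at 1449, 1250 and 1488 CPM in positive against 1823, 1698 and 2325 CPM in negative cells of the tumor libraries in the same order. It was 219 against 480 CPM in homozygous and 2344 against 2943 CPM in heterozygous alpha cells. The median mitochondrial share was higher in positive cells of 4 libraries, at 1.43%, 1.28% and 2.16% against 1.16%, 1.02% and 1.54% in the tumor libraries and 0.693% against 0.536% in homozygous alpha cells. It was 0.613% against 0.622% in heterozygous ones. Hormone UMIs count in the 5000 of the thinning here too, so the split itself favors a lower hormone share in positive cells. The part of hormone share, stress and mitochondrial share in the estimates was not tested. The smallest adjusted p belonged to Mrpl53, with 71.0, 147 and 109 CPM in positive against 54.5, 110 and 83.3 CPM in negative cells of tumor A, tumor B and tumor C, 103 against 86.0 CPM in homozygous and 113 against 90.2 CPM in heterozygous alpha cells (0.35 ± 0.09, limma adjusted p = 0.114). The positive cells were the higher ones in 5 of 5 libraries. The largest estimates were those of Mrps36 (+0.61), Mrpl37 (+0.56), Mrpl16 (+0.45) and Mrpl32 (+0.39). The lowest were those of Mrpl3 (-0.29), Mrps30 (-0.24), Mrpl9 (-0.18) and Mrps31 (-0.13). Limma adjusted p over both sets ran from 0.176 to 0.779. Mrps36 lay between 0 and 6.74 CPM in these classes. It was higher in positive cells of 4 of 5 libraries, with 5.81 against 0 CPM in tumor A. In heterozygous alpha cells Mrps36 was lower, at 1.67 against 4.14 CPM. Of the 77 nuclear respiratory chain genes 1 rose, Ndufa1 of complex I (0.56 ± 0.09, adjusted p = 0.0288), with 48 at an unadjusted p under 0.05 by limma, and none of the other lists had a call.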

How the data were processed

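The deposited tumor table holds 1 row per gene and 1 column per cell, and the islet tables hold 1 row per cell and 1 column per gene. Their values are a normalized signal: the authors scaled each cell's UMIs by its total, and multiplying back by the deposited totals gave whole UMIs for 100% of values within 0.01. These recovered counts summed to a median of 1.01 to 1.03 times the totals. The deposited total was named as exonic UMIs in the tumor table and as total UMIs in the islet tables. Because the deposited unit was a signal and not a count, limma on log2 values was the main test. CASAVA 1.8, bcl2fastq 2.17, GSNAP and GRCm38 are named per the submitters' processing notes.

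A floor of 1000 UMIs and 500 genes per cell and a ceiling of 20% mitochondrial UMIs removed no cell, and Scrublet (scanpy 1.11.5, expected rate 0.06, per library) removed 17, 9 and 15 doublets of tumor libraries A, B and C, 1 of the homozygous and 8 of the heterozygous library. Cell types and clusters are the authors'. Per library, CPM was averaged over cells, a pseudocount of 1 CPM added, and genes at 5 CPM in 2 libraries tested with limma 3.58.1 (trended prior variance), Benjamini-Hochberg adjusted over all genes tested. The cycling and Slc38a5 fits had the library as a block, since both classes come from the same cells' library. edgeR 4.0.16 and DESeq2 1.42.0 on summed UMIs were alternatives. The main limma, edgeR and DESeq2 fits were run on simulated counts. Those counts held no differences between libraries beyond depth and the planted changes, and the other settings were not simulated. Intervals cover counting error only.

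The members and lists were chosen with earlier results of these data known. Named members are those past the threshold, up to 12 a direction, or else the 4 largest estimates, the 8 most abundant, the Mrps18 paralogs and those on chromosome 10; for genotype ratios in alpha cells the 6 largest each way. Members named for other ratios and for single points (Mrpl43, Mrpl53, Mrps33, Mrpl50) were picked after their values were seen. The mitochondrial tRNA synthetase list is not reported here for cycling cells.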

Additional observations from a re-analysis of the deposited data

Results flagged for a closer look

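The pooled level of the 77 genes in homozygous over heterozygous islets lay on different sides of 1 in different cell types, each from 1 library a genotype, and the difference between types was not tested. On all UMIs the ratio was 1.054 in alpha and 1.148 in stellate cells, against 0.9414 in delta and 0.9153 in endothelial cells. Outside the hormones it was 1.257 in alpha, 1.224 in delta and 1.136 in stellate cells, against 0.9057 in endothelial cells. The endothelial ratio lay below 1 and the alpha and stellate ratios above 1 on both scales, and the delta ratio changed side.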

How the results depend on the processing

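No member passed in tumor against islet alpha cells or in Slc38a5-positive against negative cells under any setting run. In cycling cells the 11 higher and 1 lower members became 2 and 0 with no filter on low values, 4 and 2 with TMM scaling, with hormones left out and with DESeq2, 8 and 2 with edgeR, 10 and 0 with 3 or more cycle genes, and 0 and 0 with no replicate block. Leaving out each library gave 3 to 12 higher and 0 to 2 lower. All genes called there were 1076 higher and 161 lower, against 639 and 558 with TMM scaling, 787 and 433 with hormones left out, 1030 and 483 with edgeR, and 652 and 145 with DESeq2. The median change relative to all genes was 0.09 with a range of 0.06 to 0.19 over settings. In tumor against islet alpha cells, all genes called were 213 higher and 14 lower, against 47 and 6 with TMM scaling, 49 and 9 with hormones left out, 17 and 1 with edgeR, and 392 and 260 with DESeq2. For Slc38a5 they were 18 and 5, against 10 and 8, 5 and 14, 48 and 60, and 30 and 25 under those settings. The alpha genotype ratio of 1.05 became 1.26 with hormones left out and 1.14 with homozygous cluster 2.1 only, and the delta ratio of 0.941 became 1.22. Estimates that changed sign, none of them past the threshold, were Mrpl9 in tumor cells when 1 islet library was left out (-0.80 without the homozygous, 0.0943 without the heterozygous one), Mrps31 for Slc38a5 on pooled UMIs (0.000298) and without thinning (+0.16), Mrpl37 there without thinning (-0.11), and Mrpl3 in cycling cells when 1 tumor library was left out (-0.53 without C, 0.0694 without A). The cause was not tested. No paired analysis was possible for tumor against islet alpha cells because the labels tie no tumor library to an islet library or animal. Slc38a5 calls with no replicate block were 0. Member depth limits Mrps18b and Mrps36, under the filter in tumor and islet libraries.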
